A study of Danio rerio with 12 samples.

Results

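Genes for complement proteins, apolipoproteins, fibrinogen, serpins and other proteins that the liver secretes into plasma were followed in mCherry-sorted tumor cells of zebrafish. They were chosen by name. A gene was a member when its symbol began with c1q, c3a., c3b., c8, cfb, cfd, cfh, cfi, masp, serpina, serpinc, serpind, serpinf, serping, apoa, apoba, apobb, apoc, apoe, apoh or itih, or was *c4*, *c5*, *c6*, *c7a*, *c7b*, *c9*, *fga*, *fgb*, *fgg*, *tfa*, *fabp10a*, *ambp*, *hpx* or *ttr*. This gave 88 of 25607 zebrafish genes, and 2 of the 88 (*c1qtnf13* and a copy of *C1QL4*, ENSDARG00000055317) had no counts in any library. The prefixes also caught 2 genes by name only, *cfdp1*, which encodes a chromatin protein, and *C1QBP*, which encodes a mitochondrial protein that binds C1q.

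Total RNA was sequenced from tumors of Tg(*lck:IRF4*) fish, in which the zebrafish *lck* promoter drives human *IRF4* and mCherry. The 12 libraries fell into 4 groups of 3: DMSO day 1, JQ1 day 1, DMSO day 3 and JQ1 day 3. The paper describes its day 3 samples as independent animals, and the same was assumed for day 1. JQ1, which blocks the acetyl-lysine pocket of BRD proteins, was given at 4 μM in the tank water, and DMSO is its vehicle. All animals carried the transgene and a tumor, were of mixed genders that the labels do not separate, and belonged to a Singapore wild-type strain. The paper gives the fish of its JQ1 and DMSO treatment as wild type for *p53*. The gate on mCherry keeps cells with an active *lck* promoter, which in these fish includes some B cells as well as T cells. Day 1 is known from the sample labels only.

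Complement is a cascade of plasma proteins. C1q and the MASP proteases start it, C3 is cleaved by convertases built from C4 or from factor B after cleavage by factor D, and C5 to C9 form a pore in the target membrane. Factor H and C1 inhibitor restrain it. In vertebrates hepatocytes make most of these proteins, together with fibrinogen, transferrin, apolipoproteins and protease inhibitors, whereas the chains of C1q come mainly from macrophages and, in mammals, factor D from fat tissue. In zebrafish several of the genes are present in tandem copies, so C3 alone is encoded by 8 of the members.

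A library held 8176139 to 12771912 counts on zebrafish genes, and the limit of 3 counts for a gene at 0 corresponded to 0.188 to 0.410 CPM (counts scaled by library size and edgeR's TMM factors), which covers counting error only. The 88 genes together took 0.0275 to 0.118% of the counts in DMSO day 1, 0.0593 to 0.139% in JQ1 day 1, 0.0354 to 0.0966% in DMSO day 3 and 0.117 to 0.319% in JQ1 day 3. Replicates differed beyond counting error (chi-square over degrees of freedom 39.3 to 132 within groups). The 4 T-cell markers *bcl11ba*, *THEMIS*, *lat* and *lck* were present in each library, at a summed 2198 to 3766 CPM in DMSO day 1 and 501 to 1804 CPM in JQ1 day 3.

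Libraries within a group stood apart for these genes. Of the 77 members with at least 20 counts in all, 40 (51.9%) had their highest level in JQ1 day 3 replicate 3, against 11.1% of the 21199 genes with as many counts. This library also held 16168 CPM of *vtg1* and 2092 CPM of *vtg2*, which encode yolk proteins that the female liver makes, whereas JQ1 day 3 replicates 1 and 2 held 0.458 and 0 CPM of *vtg1*. Among the other groups *vtg1* reached 221 and 163 CPM in DMSO day 3 replicates 1 and 2 and 32.7 CPM in DMSO day 1 replicate 1, and it was under 1 CPM in the others. In JQ1 day 3 replicate 2, 12 members (15.6%) were at their highest, a smaller share than the 18.7% of all genes with as many counts. Its summed *IRF4* and mCherry level was the lowest of the 12 libraries, 629 CPM. DMSO day 1 replicate 3 had 5900 CPM of 8 macrophage markers (C1q not among them), against 585 and 820 CPM in the other DMSO libraries of day 1. Values without these libraries stand beside the members that they moved most.

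The summed levels of the groups of genes show the pattern over all libraries. Fibrinogen genes summed to 0.694, 2.11 and 0.220 CPM in DMSO day 1 and 8.15, 5.56 and 24.0 CPM in JQ1 day 1. They summed to at most 2.73 CPM in DMSO day 3 and to 5.19, 3.63 and 80.6 CPM in JQ1 day 3. The ranges of DMSO-treated and JQ1-treated libraries did not overlap on either day. Proteases and convertase parts summed to 38.5 to 111 CPM in DMSO day 1, 130 to 221 CPM in JQ1 day 1, 29.2 to 54.4 CPM in DMSO day 3 and 160 to 305 CPM in JQ1 day 3, again without overlap. C1q chains, C1q-domain genes, complement regulators and membrane attack components overlapped between treatments on day 1 and not on day 3. Serpins and apolipoproteins overlapped on both days, and carriers and inhibitors on neither. Since these are bulk libraries, fewer cells of a type and less RNA per cell cannot be told apart.

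**Figure D1:**
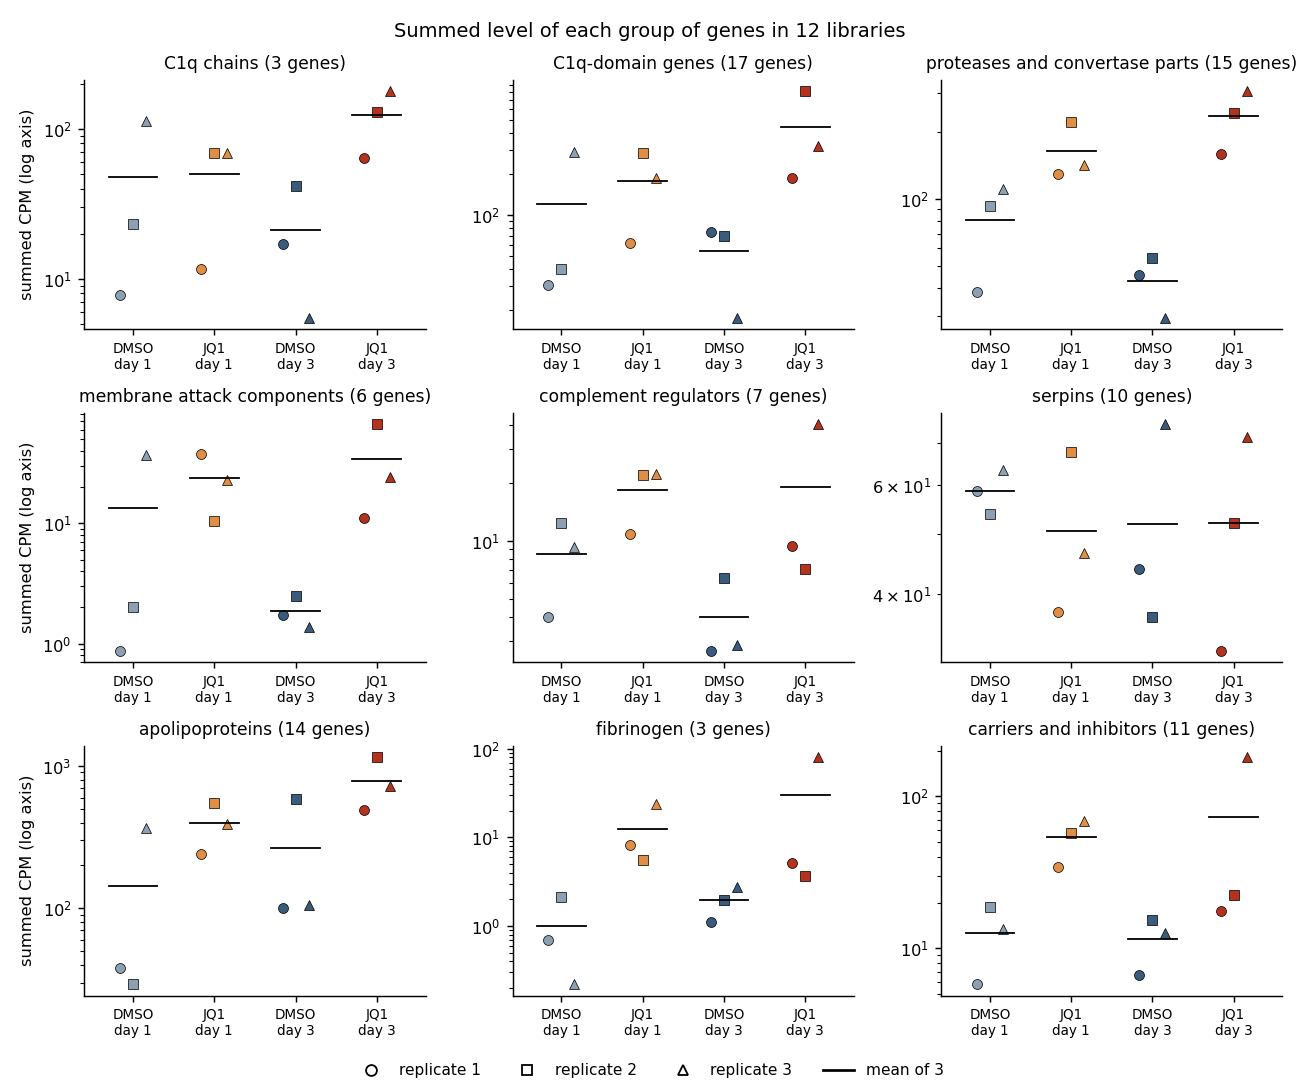
Summed TMM-normalized CPM (log axis) of 9 groups of member genes in each of 12 libraries; symbols mark the replicate, and bars the mean of 3 libraries. Fibrinogen was at 0.220 to 2.73 CPM in the DMSO-treated libraries and at 3.63 to 80.6 CPM in the JQ1-treated libraries, while serpins and apolipoproteins overlapped between treatments on both days.

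At day 3, 47 of the 88 members had enough counts for edgeR's quasi-likelihood test, and 41 did not. Of the 47, 15 were higher after JQ1 with a Benjamini-Hochberg adjusted p under 0.05 over all genes, 2 were lower and 30 did not pass. The background was 15.3% higher and 9.91% lower among the 16273 genes tested. The log2 fold change was above 0 in 43 of 47 members, with a median of 3.02, and the median over all genes tested was 0.05. Every JQ1 library was above every DMSO library in 27 members and below in 2, where the background was 24.8% and 26.5% of genes. Only members that passed the filter on low counts enter these numbers, and a gene high in 1 group alone can pass it. Without JQ1 day 3 replicate 3 the median was 1.54 and 11 members passed, and without JQ1 day 3 replicate 2 it was 3.10 and 3 passed. The share of all genes called in these fits is not printed here, so the 11 and the 3 cannot be read against a background. With any 1 DMSO library left out, 0 members passed in edgeR, although 23 to 32 had an unadjusted p under 0.05, and 0 of all genes passed either. With all 6 libraries an unadjusted p under 0.05 was found for 32 of 47 members, beside 7092 of the 16273 genes.

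At day 1, 40 members were tested and 1 was higher (*cfd*), against a background of 0.0443% (7 of 15815 genes). By edgeR 0 members were lower, with a background of 0% of genes. An unadjusted p under 0.05 was found for 17 of the 40 members, beside 3537 of the 15815 genes. DESeq2, run without the filter on 84 members, called 15 higher and 1 lower. Without DMSO day 1 replicate 3, 9 members passed in edgeR, namely *cfd*, *c3a.1*, *c3a.6*, *c7b*, *FGB*, *apoeb*, *apoc1*, *apobb.1* and *serpina1*. The share of all genes called by DESeq2 or without that library is not printed here. The counts of members from these fits therefore cannot be read against a background. The log2 fold change was above 0 in 36 of 40 members, with a median of 1.39, and the median over all genes tested was 0.00. Groups did not overlap in 18 members that were higher and 3 that were lower, beside 16.3% and 14.8% of all genes. Scaled by ERCC counts, which were added by cell number, the median over all genes lay at −1.51 on day 1 and that of the members at −0.30, so day 1 directions hold relative to the other RNAs of a library. At day 3 the same scaling moved the median over all genes to −0.38 and that of the members to 2.43.

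The factor D gene *cfd* (ENSDARG00000039579), which encodes the protease that cleaves factor B, rose on both days. Its counts were 11, 13 and 20 in DMSO day 1 and 381, 252 and 457 in JQ1 day 1. They were 7, 18 and 26 in DMSO day 3 and 514, 999 and 259 in JQ1 day 3. Each of the 6 JQ1-treated libraries thus held at least 252 counts and each of the 6 DMSO-treated libraries at most 26. The level rose from 1.22 ± 0.256 to 33.1 ± 9.81 CPM (SD, n = 3) at day 1, a log2 fold change of 4.76 (SE 0.42, adjusted p = 0.0237, edgeR), and from 2.04 ± 1.48 to 40.8 ± 21.1 CPM at day 3, a log2 fold change of 4.41 (SE 0.73, adjusted p = 0.0221, edgeR). The difference between the day 3 and day 1 effects was −0.40 (SE 0.78, adjusted p = 0.918, edgeR). Leaving out any 1 library other than DMSO day 1 replicate 3 took the day 1 call above the threshold, at log2 fold changes of 4.57 to 4.97.

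The 8 genes for C3, the central protein of the cascade, fell into unlike patterns. *c3a.6* (ENSDARG00000043719) had 0, 0 and 8 counts in DMSO day 1, 74, 185 and 78 in JQ1 day 1, 2, 2 and 11 in DMSO day 3 and 384, 411 and 130 in JQ1 day 3. It rose at day 3 with a log2 fold change of 5.24 (SE 0.92, adjusted p = 0.0232, edgeR), and at day 1 the value was 5.53 (SE 1.25, adjusted p = 0.0742). Its JQ1 and DMSO libraries did not overlap on either day. *c3a.1* (ENSDARG00000012694) had 2, 16 and 7 counts in DMSO day 1, 91, 168 and 149 in JQ1 day 1, 8, 29 and 21 in DMSO day 3 and 80, 842 and 1668 in JQ1 day 3. It rose at day 3 by a log2 fold change of 4.90 (SE 1.16, adjusted p = 0.0303), or 3.75 without JQ1 day 3 replicate 3, and stood at 4.06 (SE 0.78, adjusted p = 0.0618) on day 1. *c3b.1* rose at day 3 from 0, 3 and 2 to 80, 29 and 17 counts (log2 fold change 4.01, adjusted p = 0.0422).

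The C3 copies *c3a.5* and *c3a.4* did not pass the test on either day. In RefSeq's gene order *c3a.5* lies between *c3a.6* and *c3a.1* with no protein-coding gene between them, and *c3a.5* had 52, 19 and 11 counts in DMSO day 3 and 72, 23 and 44 in JQ1 day 3. Its log2 fold change was 0.41 at day 3 (SE 0.69, adjusted p = 0.670) and 1.03 at day 1 (SE 0.46, adjusted p = 0.235). *c3a.4* was present in the sorted cells without the drug, at 21.5, 33.9 and 45.5 CPM in DMSO day 1 and 20.6, 11.4 and 5.05 CPM in DMSO day 3. It was at 28.4, 5.76 and 12.2 CPM in JQ1 day 3, and replicate 1 was above each DMSO library of that day (log2 fold change 0.37, SE 0.70, adjusted p = 0.706). *c3a.2* and *c3a.3*, also neighbours, had at most 11 counts in each library other than JQ1 day 3 replicate 3, where they had 77 and 84. Reads that fit several copies were discarded by the authors' mapping, so the level of each copy rests on its unique stretches.

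**Figure D2:**
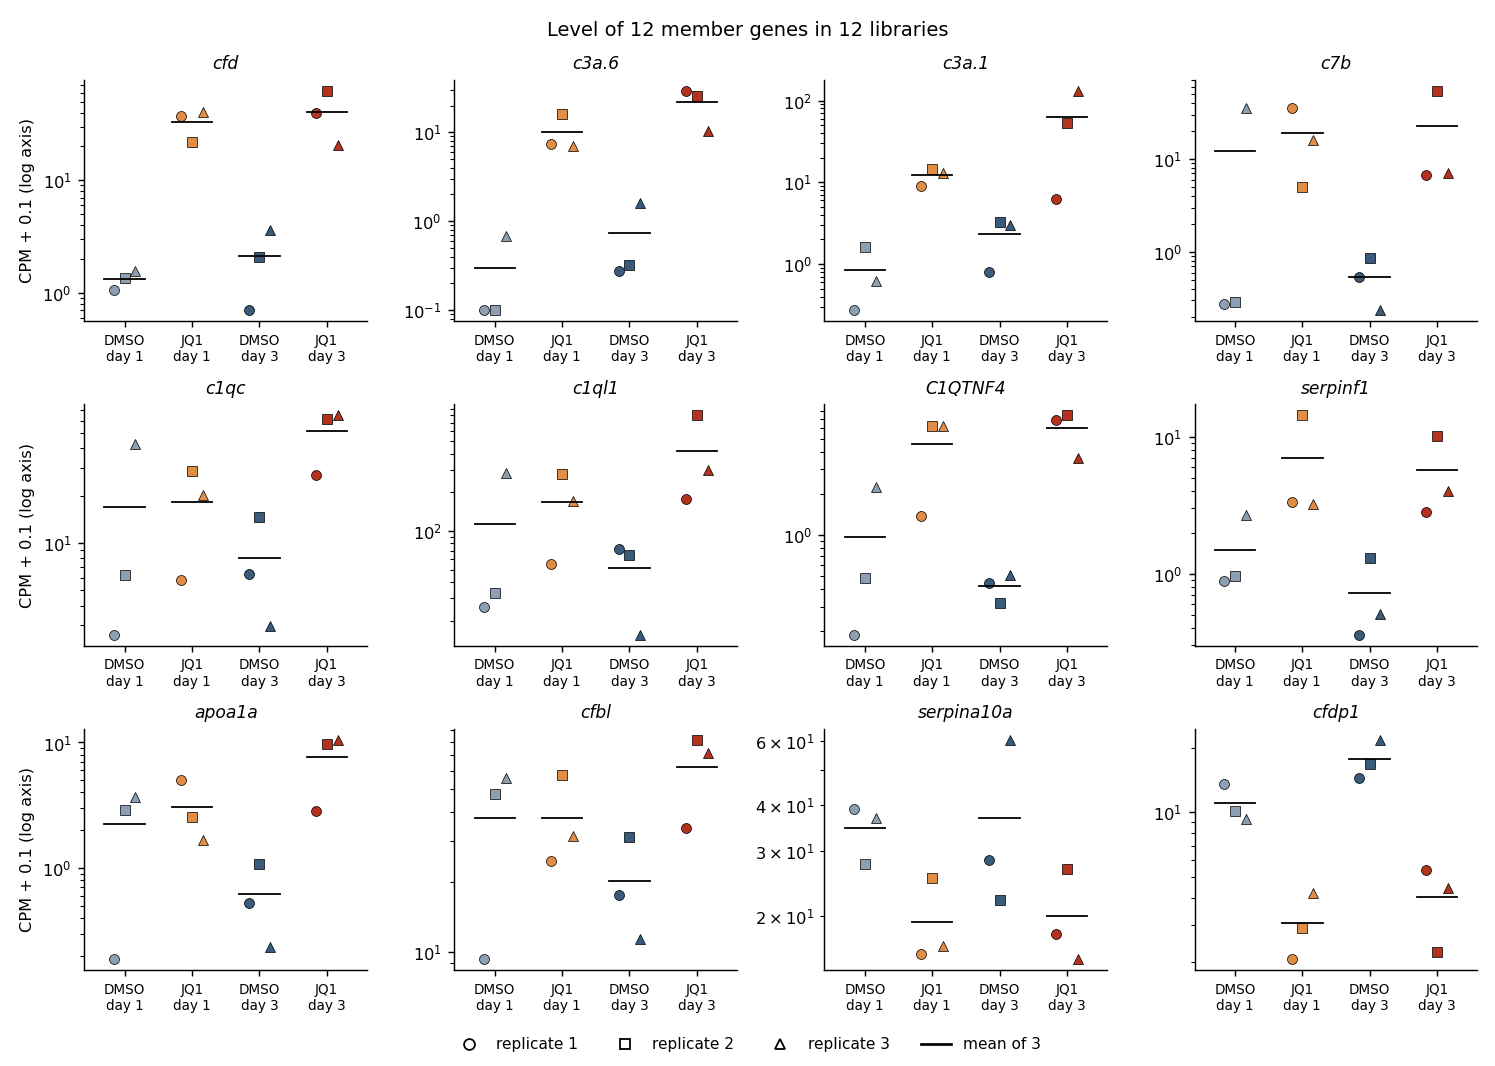
CPM + 0.1 (log axis) of 12 member genes in each of 12 libraries, with bars at the mean of 3. *cfd* and *c3a.6* were higher in each of 6 JQ1-treated libraries than in each of 6 DMSO-treated libraries, *c1qc*, *c7b*, *c1ql1* and *cfbl* overlapped on day 1 and not on day 3, *serpina10a* overlapped on day 3, and *cfdp1* was lower in each JQ1-treated library.

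Among the other convertase parts, *cfbl* (ENSDARG00000090730), a factor B-like gene, was present in all libraries. It had 9.20, 47.7 and 55.7 CPM in DMSO day 1, 24.4, 57.2 and 31.4 CPM in JQ1 day 1, 17.5, 31.2 and 11.3 CPM in DMSO day 3 and 33.8, 81.1 and 71.2 CPM in JQ1 day 3. It rose at day 3 (log2 fold change 1.69, SE 0.47, adjusted p = 0.0418) but with ERCC scaling the adjusted p was 0.0733, and without JQ1 day 3 replicate 3 it was 0.0827. On day 1 the libraries overlapped. *cfb* itself, the factor B gene, had 0, 2 and 2 counts in DMSO day 3 and 16, 13 and 283 in JQ1 day 3, just outside the threshold (log2 fold change 5.70, SE 1.73, adjusted p = 0.0511) and at 2.68 without JQ1 day 3 replicate 3. *c5* rose from 6, 2 and 2 to 15, 22 and 122 counts at day 3 (log2 fold change 3.57, SE 1.06, adjusted p = 0.0489), or 1.86 without that library, when it no longer passed. *c4* had a log2 fold change of 2.38 at day 3 (SE 1.05, adjusted p = 0.127), or 1.67 without that library.

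The MASP proteases, which start the lectin pathway, were close to the detection limit. *MASP2* (ENSDARG00000007988) had 0, 2 and 0 counts in DMSO day 3 and 17, 16 and 18 in JQ1 day 3, and it passed the test (adjusted p = 0.0383, edgeR), but not with any 1 library left out (adjusted p 0.0626 to 0.135). From these counts the ratio of JQ1 to DMSO was 17.2, with a 95% interval of 4.52 to 146 that covers counting error only. On day 1 it went the other way, from 3, 2 and 12 counts in DMSO to 1, 0 and 0 in JQ1, too few for the test. *MASP1* had no counts in DMSO day 1 and 3, 2 and 10 in JQ1 day 1, at least 5.38-fold higher (3 counts over the group as the limit), and at day 3 it was seen in JQ1 replicates 1 and 2 (41 and 16 counts) and not in replicate 3.

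The 3 chains of C1q, which lie next to each other in the genome and are assembled into 1 protein, had day 3 fold changes of like size, and 1 of the 3 passed the test. *c1qc* (ENSDARG00000095627) had 6.28, 14.6 and 2.87 CPM in DMSO day 3 and 27.0, 61.7 and 64.6 CPM in JQ1 day 3, and rose with a log2 fold change of 2.75 (SE 0.64, adjusted p = 0.0297, edgeR). *c1qb* (2.53, SE 0.78, adjusted p = 0.0535) and *c1qa* (2.45, SE 0.88, adjusted p = 0.0773) did not pass, and *c1qa* was at 1.73 without JQ1 day 3 replicate 3, although each JQ1 library of day 3 was above each DMSO library in both. On day 1 the log2 fold changes of *c1qc*, *c1qb* and *c1qa* were 0.11, 0.09 and −0.08. *c1qc* then had 2.52, 6.14 and 42.2 CPM after DMSO and 5.69, 28.8 and 20.1 CPM after JQ1, and DMSO day 1 replicate 3 was the highest of these 6. Without that library the day 1 values of *c1qc*, *c1qb* and *c1qa* were 2.07, 1.53 and 1.47 (adjusted p = 0.113, 0.261 and 0.369, edgeR). The difference between days was 2.59 for *c1qc* (SE 1.32, adjusted p = 0.711, edgeR), so the day 1 and day 3 effects were not shown to differ. With ERCC scaling *c1qb* was lower at day 1, with a log2 fold change of −1.80 (adjusted p = 0.0410, edgeR). The median over all genes was also negative with that scaling, and *c1qb* did not pass in DESeq2 with ERCC size factors (adjusted p = 0.0622).

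Most macrophage markers other than C1q had a positive log2 fold change at day 3, as the C1q chains had. Of 13 listed, 8 were matched by name and tested, and 4 rose at day 3 (median log2 fold change 2.42). The value was above 0 in 7 of the 8. *csf1rb* was at 0.26 (adjusted p = 0.779, edgeR) and *MFAP4* at −0.94 (adjusted p = 0.526, edgeR). Their summed level was 585 to 5900 CPM in DMSO day 1, 1535 to 4587 CPM in JQ1 day 1, 418 to 2366 CPM in DMSO day 3 and 3045 to 5959 CPM in JQ1 day 3, and none of the 8 was at 0 throughout. *marco*, a scavenger receptor, had 51.0, 92.4 and 22.4 CPM in DMSO day 3 and 204, 1445 and 1075 CPM in JQ1 day 3. For each 1000 CPM of macrophage markers the C1q chains had 7.98 to 17.5 CPM in DMSO day 3 and 21.2 to 30.0 CPM in JQ1 day 3, and 13.3 to 28.3 and 7.55 to 25.6 CPM in DMSO and JQ1 of day 1. In each library the largest part of the macrophage marker sum was *cd74a*. It had 1937, 2002 and 313 CPM in DMSO day 3 and 2274, 2301 and 3782 CPM in JQ1 day 3. *cd74a* did not pass (log2 fold change 1.03, adjusted p = 0.266, edgeR), whereas *marco* and *csf1ra* rose by 4.10 and 3.15. The C1q ratios thus depend strongly on *cd74a*, and ratios to the other markers were not made. The part of other cells in the C1q values was not tested.

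**Figure D3:**
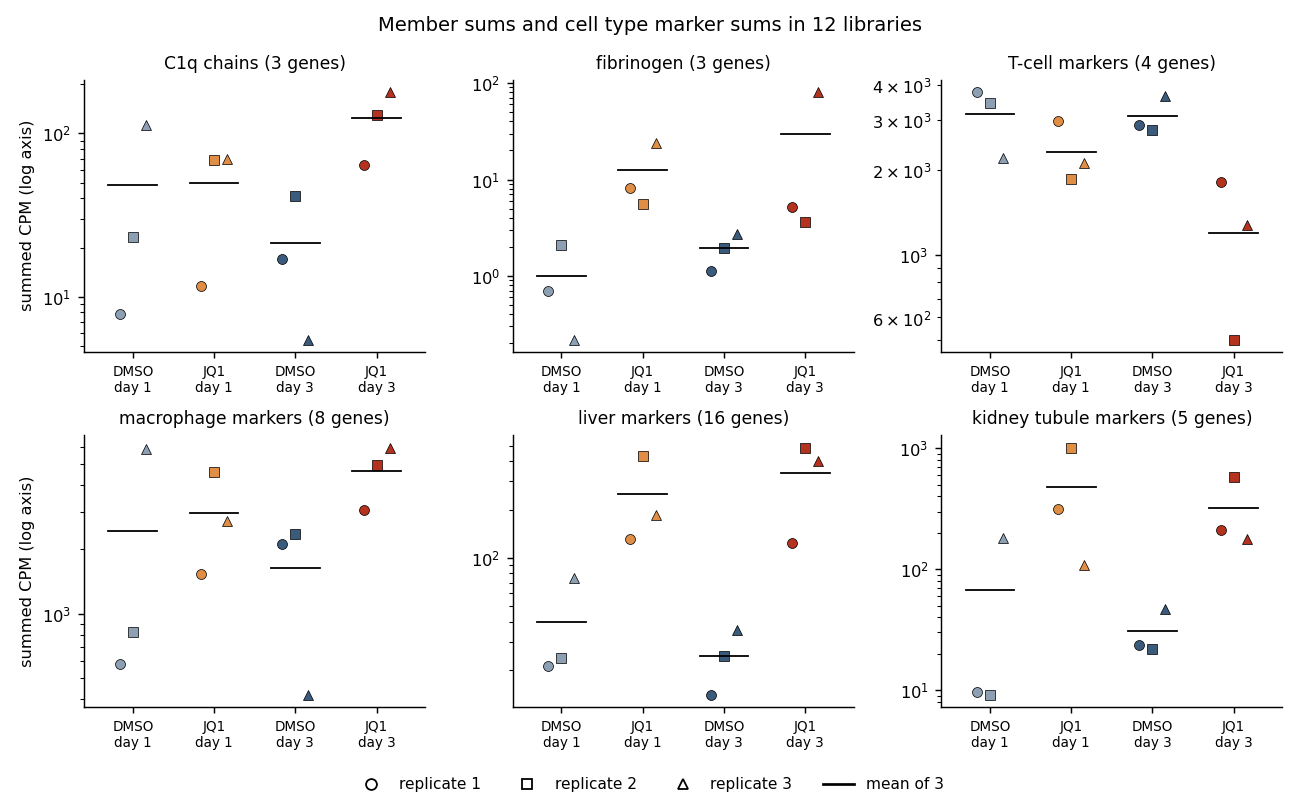
Summed CPM (log axis) of C1q chains and fibrinogen beside that of macrophage, liver, T-cell and kidney tubule markers, which are not members, in each of 12 libraries. Liver markers were at 13.9 to 74.5 CPM in the DMSO-treated libraries and at 123 to 487 CPM in the JQ1-treated libraries, and T-cell markers were at 501 to 1804 CPM in JQ1 day 3.

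Genes that share the C1q domain but are no part of the C1 complex mostly had few counts, and 14 of these 17 did not reach the test at day 3. *c1ql1* (ENSDARG00000043436), a C1q-like gene known in mammals from the synapse, was among the most counted members, with 3.91 to 31.1% of all member counts in a library. It had 72.2, 65.2 and 15.4 CPM in DMSO day 3 and 176, 796 and 297 CPM in JQ1 day 3 and rose (log2 fold change 3.12, SE 0.77, adjusted p = 0.0326, edgeR). Without JQ1 day 3 replicate 2 the value was 2.25. At day 1 it had 25.3, 32.9 and 282 CPM after DMSO and 55.1, 276 and 172 CPM after JQ1 (log2 fold change 0.58, adjusted p = 0.771), so that DMSO day 1 replicate 3 was again the highest, and the value was 2.53 without it (adjusted p = 0.0540). *C1QTNF4* (ENSDARG00000024299), a secreted C1q/TNF-related protein, had 4, 2 and 3 counts in DMSO day 3 and 88, 117 and 45 in JQ1 day 3 (log2 fold change 4.20, SE 0.61, adjusted p = 0.0215). *c1qtnf6b* had 218 counts in JQ1 day 3 replicate 3 and at most 40 in any other library, and its day 3 log2 fold change was 3.19 with that library and 0.09 without it (adjusted p = 0.179 and 0.961).

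Of the membrane attack components, *c7b* (ENSDARG00000057121), which encodes C7, rose at day 3. It had 5, 7 and 1 counts in DMSO and 86, 865 and 89 in JQ1, a log2 fold change of 5.68 (SE 1.15, adjusted p = 0.0258, edgeR), or 3.92 without JQ1 day 3 replicate 2. At day 1 it had 2, 2 and 486 counts in DMSO and 363, 57 and 180 in JQ1, and DMSO day 1 replicate 3 was level with the highest JQ1 library in CPM (log2 fold change 0.63, SE 1.65, adjusted p = 0.858). Without DMSO day 1 replicate 3 the value was 6.59 and passed (adjusted p = 0.0289, edgeR). *c7a* had a log2 fold change of 3.69 at day 3 (SE 1.23, adjusted p = 0.0633), or 2.19 without JQ1 day 3 replicate 2. *c9*, which lines the pore, had 2, 9 and 9 counts in DMSO day 3 and 22, 8 and 145 in JQ1 day 3 (2.58, SE 1.26, adjusted p = 0.159), and the value was 0.49 without JQ1 day 3 replicate 3. The C8 chains *c8a*, *c8b* and *c8g* had too few counts for the test.

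Of the complement regulators, which keep the cascade off the body's own cells, 2 were tested and 1 rose. *serping1* (ENSDARG00000058053), the gene for C1 inhibitor, had 0, 5 and 2 counts in DMSO day 1, 12, 22 and 23 in JQ1 day 1, 1, 6 and 4 in DMSO day 3 and 35, 37 and 131 in JQ1 day 3. It rose at day 3 (log2 fold change 3.64, SE 0.97, adjusted p = 0.0382, edgeR), and at day 1 the value was 3.02 (SE 1.08, adjusted p = 0.161). The day 3 value was 2.57 without JQ1 day 3 replicate 3, and the call was lost with any 1 of the 6 libraries left out (adjusted p 0.0529 to 0.108). *cfh*, the factor H gene, had 29, 49 and 5 counts in DMSO day 3 and 75, 77 and 261 in JQ1 day 3, which overlap in CPM (log2 fold change 1.91, SE 0.87, adjusted p = 0.136), and 0.90 without JQ1 day 3 replicate 3. The 5 factor H-like genes beside it (*cfhl1* to *cfhl5*) were not tested on either day. *cfhl4* had 67 counts in JQ1 day 3 replicate 3 and at most 9 elsewhere.

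The 3 fibrinogen genes *fga*, *FGB* and *FGG*, whose products form the clot and are made by hepatocytes, had log2 fold changes of 4.27 (SE 1.39, adjusted p = 0.0600), 3.85 (SE 1.48, adjusted p = 0.0910) and 3.51 (SE 1.19, adjusted p = 0.0668) at day 3, and none passed. *fga* had 5, 6 and 11 counts in DMSO day 3 and 34, 30 and 546 in JQ1 day 3, and *FGB* had 6, 10 and 3 and then 15, 12 and 340. JQ1 day 3 replicate 3 was the highest of the 6 for each gene, and *FGB* overlapped between the treatments in CPM. Without that library the values were 1.41 for *fga*, 0.49 for *FGB* and 1.66 for *FGG*. At day 1 *FGB* had 2, 2 and 0 counts in DMSO and 42, 19 and 90 in JQ1 (log2 fold change 5.19, SE 1.11, adjusted p = 0.0697, edgeR), and *fga* had 4, 15 and 2 and then 26, 39 and 122 (3.14, SE 1.01, adjusted p = 0.136). *fga* was higher in each of the 6 JQ1-treated libraries than in each of the 6 DMSO-treated libraries.

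Carriers bind iron, lipids or hormones in plasma, and inter-alpha-trypsin inhibitors bind proteases and matrix. Of these, 0 of the 6 tested passed at day 3 in edgeR, with 4 at an unadjusted p under 0.05. *tfa* (ENSDARG00000016771), the transferrin gene, had 1.65, 14.8 and 6.67 CPM in DMSO day 1, 21.2, 44.0 and 43.7 CPM in JQ1 day 1, 2.24, 8.17 and 6.56 CPM in DMSO day 3 and 5.11, 9.20 and 100 CPM in JQ1 day 3. Its log2 fold change was 2.27 at day 1 (SE 0.73, adjusted p = 0.136) and 2.81 at day 3 (SE 1.17, adjusted p = 0.110), or 0.36 without JQ1 day 3 replicate 3. *fabp10a*, a bile acid-binding protein that marks zebrafish hepatocytes, had 10, 20 and 20 counts in DMSO day 3 and 83, 50 and 463 in JQ1 day 3 (3.05, SE 1.01, adjusted p = 0.0622), or 1.32 without that library. It had 0, 14 and 20 counts in DMSO day 1 and 62, 33 and 131 in JQ1 day 1 (2.87, SE 1.16, adjusted p = 0.203). *itih3b.2*, an inter-alpha-trypsin inhibitor heavy chain, had 23, 27 and 203 counts in JQ1 day 3 against 6, 11 and 2 in DMSO day 3 (3.31, SE 1.13, adjusted p = 0.0680), and 1.37 without that library.

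Apolipoproteins coat the lipid particles of plasma. *apoa1a* (ENSDARG00000012076), for an apolipoprotein of high-density particles, rose at day 3 from 5, 9 and 1 counts to 36, 155 and 131 (log2 fold change 3.89, SE 0.86, adjusted p = 0.0274, edgeR), with overlapping libraries on day 1. *apoea* rose from 3, 4 and 2 to 12, 32 and 70 counts (3.14, SE 0.85, adjusted p = 0.0391), or 2.17 without JQ1 day 3 replicate 3. *apoa1b* had 13, 51 and 58 counts in DMSO day 3 and 134, 63 and 2978 in JQ1 day 3 (4.16, SE 1.60, adjusted p = 0.0916), and 0.56 without that library. *apobb.1*, for apolipoprotein B, was just outside the threshold, with 21, 42 and 38 counts in DMSO day 3 and 104, 219 and 1780 in JQ1 day 3 (3.87, SE 1.17, adjusted p = 0.0510), and 1.51 without that library.

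The most counted apolipoproteins did not pass with all libraries. *apoeb* and *apoc1*, neighbours in the genome, are known in zebrafish from the layer around the yolk, and *apoeb* also from brain macrophages. *apoeb* (ENSDARG00000040295) had 23.9, 9.30 and 209 CPM in DMSO day 1, 120, 316 and 169 CPM in JQ1 day 1, 65.8, 440 and 42.5 CPM in DMSO day 3 and 274, 804 and 157 CPM in JQ1 day 3. The high DMSO libraries, day 1 replicate 3 and day 3 replicate 2, lay within the JQ1 range (log2 fold change at day 3 1.24, SE 0.99, adjusted p = 0.362, or 0.28 without JQ1 day 3 replicate 2 and 2.92 without DMSO day 3 replicate 2). At day 1 the value was 1.32 (adjusted p = 0.484), and 3.62 without DMSO day 1 replicate 3 (adjusted p = 0.0292). *apoc1* was highest in the same library of each group as *apoeb*, with 29.8, 135 and 41.8 CPM in DMSO day 3 and 184, 310 and 114 CPM in JQ1 day 3 (1.63, SE 0.64, adjusted p = 0.0966).

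Serpins were the group with the widest spread of directions. *serpinf1* (ENSDARG00000069048), which encodes pigment epithelium-derived factor, rose at day 3 from 3, 11 and 3 to 36, 161 and 50 counts (log2 fold change 3.22, SE 0.84, adjusted p = 0.0366, edgeR), and the value was 2.45 without JQ1 day 3 replicate 2. It had 9, 9 and 35 counts in DMSO day 1 and 33, 164 and 36 in JQ1 day 1 (2.29, adjusted p = 0.175). *serpina10a* (ENSDARG00000005924) and *serpina10b*, copies of the gene for a protease inhibitor that works with protein Z, were present in the sorted cells without the drug. *serpina10a* had 39.1, 27.6 and 36.9 CPM in DMSO day 1, 15.6, 25.2 and 16.4 CPM in JQ1 day 1, 28.3, 21.9 and 60.1 CPM in DMSO day 3 and 17.7, 26.7 and 15.1 CPM in JQ1 day 3. Its log2 fold changes were −0.84 (SE 0.31, adjusted p = 0.173) and −0.83 (SE 0.44, adjusted p = 0.189), and those of *serpina10b* were −0.59 and −0.31. With ERCC scaling both were lower at day 1, *serpina10a* at −2.43 (adjusted p = 0.00776) and *serpina10b* at −2.14 (adjusted p = 0.0171, edgeR), where the median over all genes was −1.51. *serpina1l*, an alpha-1-antitrypsin-like gene, was at 2.32 (SE 0.72, adjusted p = 0.0545) at day 3, or 1.41 without JQ1 day 3 replicate 3. Its neighbour *serpina1* was at 2.96 (SE 1.59, adjusted p = 0.192), with 273 of its 308 JQ1 day 3 counts in replicate 3, and at 0.21 without that library.

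The 2 genes matched by name alone were the only members that fell at day 3. *cfdp1* (ENSDARG00000095086) had 13.5, 10.1 and 9.23 CPM in DMSO day 1, 1.96, 2.78 and 4.12 CPM in JQ1 day 1, 14.3, 16.7 and 21.6 CPM in DMSO day 3 and 5.27, 2.13 and 4.35 CPM in JQ1 day 3. It fell by 2.11 on the log2 scale at day 3 (SE 0.44, adjusted p = 0.0260, edgeR), and at day 1 the log2 fold change was −1.86 (SE 0.47, adjusted p = 0.0870). *C1QBP* (ENSDARG00000039887) went from 124, 141 and 121 to 73.7, 63.1 and 89.3 CPM at day 3 and fell by 0.71 (SE 0.20, adjusted p = 0.0410). At day 1 its libraries overlapped (log2 fold change 0.12, adjusted p = 0.827). Neither encodes a plasma protein.

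**Figure D4:**
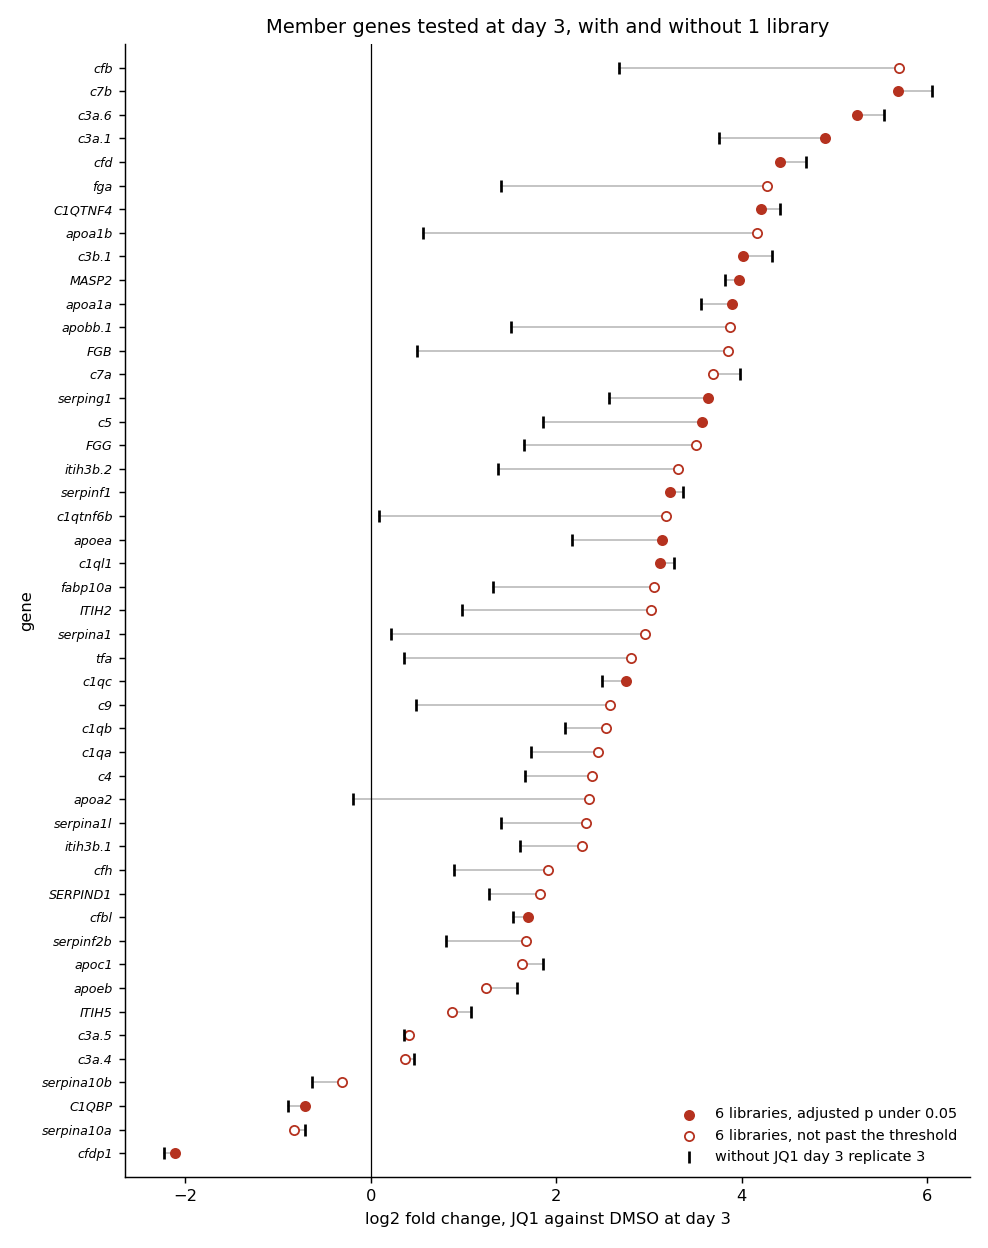
Log2 fold change of JQ1 against DMSO at day 3 for the 47 members tested (circles, filled where the edgeR adjusted p was under 0.05 with all 6 libraries) and the value without JQ1 day 3 replicate 3 (bars). *apoa1b* moved from 4.16 to 0.56 and *FGB* from 3.85 to 0.49, while *cfd*, *c3a.6* and *c7b* moved upward.

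Leaving out JQ1 day 3 replicate 3 separated the members further. The log2 fold change dropped by more than 1 in 18 of the 47, among them 3 of 3 fibrinogen genes and 4 of 6 carriers and inhibitors, and in 0 of 3 C1q chains. In 26 of 68 members with at least 20 counts in JQ1 day 3, that library was over 3-fold above the higher of the others, most of all for *ambp* (28.2-fold), *FGB* (23.5-fold) and *apoa1b* (23.0-fold). JQ1 day 3 replicate 2 stood over 3-fold above the others in 6 of the 68, among them *c7b* (7.70-fold) and *c7a* (4.89-fold). These counts were made for members only, so they cannot be read against a background of all genes. *cfd*, *c3a.6*, *c3b.1*, *C1QTNF4* and *serpinf1* were not at their highest in replicate 3.

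The sum of liver markers that are not members was higher in each JQ1-treated than in each DMSO-treated library. Of 18 listed, 16 were matched and 12 tested at day 3, of which 7 rose (median log2 fold change 2.83) and 0 fell. Their sum was 21.1 to 74.5 CPM in DMSO day 1, 130 to 431 CPM in JQ1 day 1, 13.9 to 35.2 CPM in DMSO day 3 and 123 to 487 CPM in JQ1 day 3, and none of the 16 was at 0 in all libraries. *fetub*, a fetuin of liver plasma, had 2.15, 5.01 and 5.74 CPM in DMSO day 3 and 11.3, 3.76 and 196 CPM in JQ1 day 3, so it too was highest in replicate 3. Within JQ1 day 3 the marker sum was 123, 487 and 401 CPM and that of fibrinogen 5.19, 3.63 and 80.6 CPM, so replicate 2 had the highest liver markers and the lowest fibrinogen. For each 100 CPM of liver markers, fibrinogen had 0.746 to 20.1 CPM in JQ1 day 3 and 7.75 to 8.04 CPM in DMSO day 3. Kidney tubule markers (5 of 8 matched) were higher at day 3 in 5 of 5. They summed to 21.9 to 47.0 CPM in DMSO day 3 and 178 to 578 CPM in JQ1 day 3. Epidermis markers (5 of 5 matched, 4 higher) summed to 8.69 to 56.0 and 242 to 646 CPM. Of those tested, 1 of 6 fibroblast, 2 of 3 endothelium and 1 of 1 muscle markers were higher. Granulocyte (2 tested), B-cell (4), intestine (2) and erythrocyte markers (3) had 0 calls in either direction. Markers of some tissues were thus higher and others were not called. T-cell markers (4 of 4 tested) had 1 that fell, *THEMIS*, and a median of −1.38. The part of other cells in the members' values was not tested.

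Other genes of these pathways, from lists of genes that are not members, gave a mixed picture at day 3. Of coagulation and other plasma protein genes, 27 were listed, 22 matched and 14 tested, and 6 rose and 0 fell, with *RBP4*, the retinol carrier, at a log2 fold change of 5.40 (SE 1.19, adjusted p = 0.0273, edgeR) and *CP*, ceruloplasmin, at 3.65 (SE 0.78, adjusted p = 0.0267). *CP*, *RBP4*, *PLG*, *kng1*, *f2*, *ahsg1*, *a2ml*, *GC* and *fetub* of this list are also among the liver markers, as is the transcription factor gene *HNF4A*. Of complement receptors, recognition molecules and other regulators, 25 were listed, 15 matched and 8 tested, and 2 rose, the C5a receptor *c5ar1* (2.81, adjusted p = 0.0321) and *CLU*, clusterin (3.73, adjusted p = 0.0440). Of lipoprotein handling genes (15 listed, 9 matched, 7 tested) 1 rose, *MTTP*, which loads lipid onto apolipoprotein B (3.81, adjusted p = 0.0234), and 1 fell, *CETP*. Of liver transcription factors (15 listed, 12 matched, 7 tested) 4 rose and 0 fell, *HNF4A*, *CEBPA*, *CEBPB* and *NR5A2*, and *ONECUT1* had no counts. At day 1 none of these lists had a call in edgeR.

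Between the days, 38 members were tested on both. The log2 fold change was above 0 on both days in 33 of them and below 0 on both in 3, and it was larger on day 3 in 27. The test of the difference itself covered 58 members over all 12 libraries, and 0 passed in either direction in edgeR, with a background of 0% of 18118 genes. An unadjusted p under 0.05 (edgeR) was found for 6 of the 58 members, beside 1259 of the 18118 genes. DESeq2 with its own size factors called 0 members. Of the 58, 11 were higher in each of 6 JQ1-treated libraries than in each of 6 DMSO-treated libraries, beside 7.82% of all genes, namely *fga*, *c3a.6*, *c3a.1*, *apoc4*, *fabp10a*, *serpina1l*, *apobb.2*, *serping1*, *cfd*, *cfb* and *serpinf1*. *cfdp1* was lower in each, beside 6.42% of all genes.

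**Figure D5:**
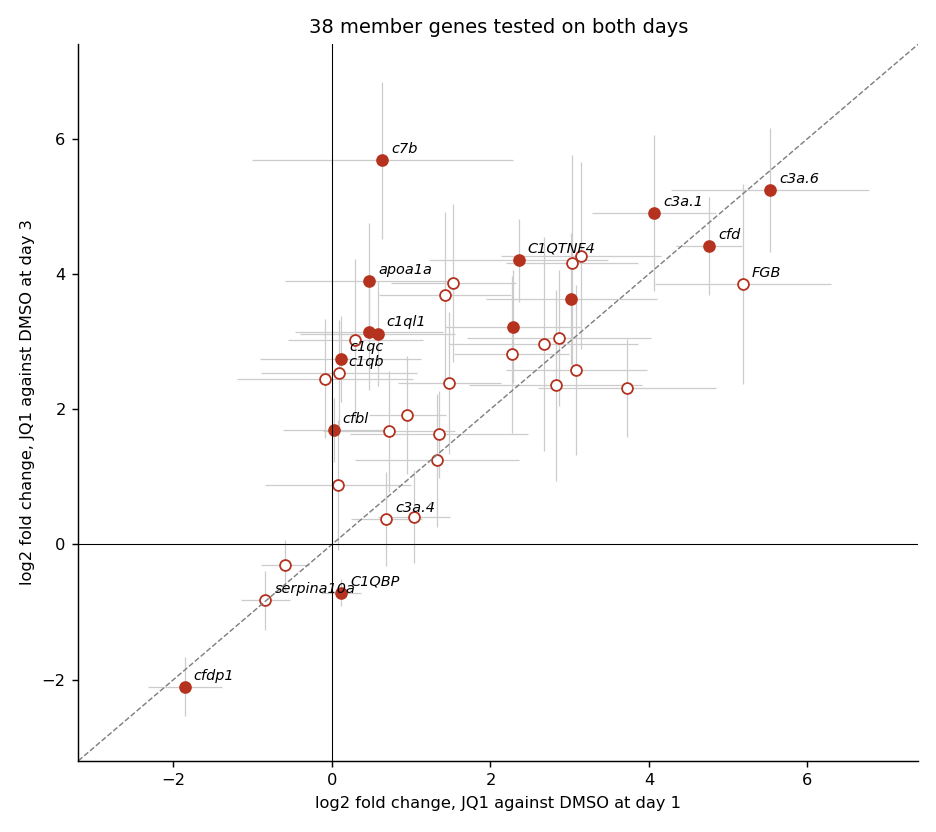
Log2 fold change of JQ1 against DMSO at day 1 (x axis) and at day 3 (y axis) with standard errors for the 38 members tested on both days, filled where the adjusted p at day 3 was under 0.05; the dashed line marks equal values. *cfd* and *c3a.6* lay near the line at 4.76 and 4.41 and at 5.53 and 5.24, while *c1qc*, *c7b* and *cfbl* lay above it.

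The DMSO-treated groups give the difference between the days without the drug. In DMSO day 3 against DMSO day 1, 28 members were tested and 0 passed in either direction in edgeR, with a background of 0% of 14108 genes, and DESeq2 called 0 members. The median log2 fold change was −0.80, beside −0.03 for all genes tested. An unadjusted p under 0.05 (edgeR) was found for 3 of the 28 members, beside 701 of the 14108 genes. The 3 members were *serpina10b* (−0.91, SE 0.29), *c3a.4* (−1.54, SE 0.56) and *C1QBP* (0.50, SE 0.17), at an adjusted p of 0.904 each.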

How the data were processed

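The authors deposited 1 table of raw counts per gene for 12 libraries. Per the labels and the study's methods, tumor cells were sorted for mCherry, ERCC RNAs were added by cell number, and strand-specific libraries were mapped with STAR 2.5.2a to GRCz11, keeping unique mappers, and counted with featureCounts (version and strand setting not given in the sources used here). The authors' 2 further tables hold DESeq2 1.12.4 results (mean normalized count, log2 fold change, standard error, Wald statistic and p-values) and were not used. The 42 T-cell receptor constructs had a count of 0, and the 92 ERCC RNAs stayed out of library sizes.

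Members and lists were chosen with earlier results of these data known. Gene names came from the annotation tables given with the data (23608 of 25607 matched), and gene order from RefSeq GRCz12tu. Each comparison used edgeR 4.0.16 (R 4.3.3): TMM, filterByExpr and the two-sided quasi-likelihood test on the libraries compared, or all 12 for the difference between days, with Benjamini-Hochberg adjustment over all genes tested and a threshold of 0.05. Standard errors are the fold change over the root of F. Printed CPM use TMM factors of all 12 libraries. Alternatives were ERCC scaling, DESeq2 1.42.0 with its own or ERCC size factors, no filter, a replicate block, a fit over 12 libraries, and each library left out. Code was tested on simulated data.

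Members described in each library were, by rule, the 3 with the highest mean CPM of each group of genes, and those past the threshold with a group mean of at least 5 CPM. Others named, such as *MASP2*, *c5*, *c3b.1*, *apoea* and *cfb*, were chosen after their values were seen. Each library was taken as 1 animal, which the paper states for day 3 only, and p-values rest on the spread between libraries. Precision follows the 8176139 to 12771912 counts per library, and with 3 against 3 an exact permutation test cannot go below p = 0.1.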

Additional observations from a re-analysis of the deposited data

Results flagged for a closer look

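The lectin pathway protease gene *MASP2* was higher in each JQ1-treated library than in each DMSO-treated library at day 3 and lower in each at day 1. Its counts were 3, 2 and 12 in DMSO day 1, 1, 0 and 0 in JQ1 day 1, 0, 2 and 0 in DMSO day 3 and 17, 16 and 18 in JQ1 day 3. The fitted log2 fold change at day 3 was 3.97, which depends on the prior count, and day 1 had too few counts for the test. The difference between the days was 7.38 on the log2 scale (SE 1.88), with an unadjusted p of 0.00211 and an adjusted p of 0.711 (edgeR), so it failed the correction over all genes.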

How the results depend on the processing

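Of 17 members past the threshold at day 3, 15 also passed among the 17 called with ERCC scaling, DESeq2 (run without the filter) with its own size factors called 30, DESeq2 with ERCC size factors 24, a fit over 12 libraries 16, and a fit without the filter on low counts 11. With 1 library left out the count was 0 to 16, with 0 for each DMSO library, and the median was 1.54 to 3.40. At day 1 the count was 1 in edgeR, 8 with ERCC scaling (4 higher and 4 lower), 16 with DESeq2, 10 with DESeq2 and ERCC size factors, 2 without the filter and 6 in the fit over 12 libraries. It was 0 to 9 with 1 library left out, with 9 only without DMSO day 1 replicate 3. The day 1 median was −0.30 with ERCC scaling in edgeR and −0.30 in DESeq2, where the medians over all genes were −1.51 and −1.31, and *c1qb* went from 0.09 to −1.80. It was 1.01 to 2.63 with 1 library left out. The test between the days gave 5 calls with DESeq2 and ERCC size factors and 0 in each other setting run, and DMSO day 3 against day 1 gave 0 in each. The share of all genes called in each setting is not printed here, so these counts cannot be read against a background. The cause of these changes was not tested.

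Same-numbered DMSO and JQ1 libraries did not deviate together (correlations 0.17, −0.11 and −0.08 at day 1 and −0.05, 0.08 and −0.24 at day 3), so the numbers were not taken as pairs. With the replicate number as a block, 0 members passed at day 3 (28 at an unadjusted p under 0.05) and 0 at day 1 (18), and 0 in the other comparisons.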
